A study of Mus musculus with 25 samples.

Results

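The genes described here are macrophage and myeloid genes of the forming mouse palate, chosen as 33 named symbols that cover Fc receptor subunits and their signalling adaptors, leukocyte surface and cytoskeletal proteins, scavenger receptors of resident macrophages, complement C1q chains, lysosomal enzymes and 1 mast cell protease. A row with the symbol was found for 32 of the 33 among the 37406 genes of the deposited table. Spi1, the transcription factor PU.1, had no row under that symbol, and an expressed row under its older symbol Sfpi1 had a median of 3.61 RPKM (a read count corrected for transcript length and for library size) and a range of 0.458 to 11.8 over the 25 libraries, and was not counted as a member.

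The tissue was the palate of wild-type CD1 mouse embryos at E14.5, cut by laser capture microdissection into anterior medial, anterior lateral, anterior oral, anterior nasal, posterior medial, posterior lateral, posterior oral and posterior nasal compartments. The alignment names of some libraries carry Tgfbr2_WT or ERK2_WT, and the sources used here do not say what these mark beside the CD1 label. No group was labelled with a treatment or a mutation. There were 3 libraries for each compartment and 4 for the anterior nasal one, 13 anterior and 12 posterior in all, and the comparisons asked which genes differ along the anterior-posterior, medial-lateral and oral-nasal axes. The study calls the libraries biological replicates. The labels do not tie them to embryos, so compartments may share animals and the p-values over libraries may then be too small.

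Macrophages of the embryo arise from yolk sac and fetal liver progenitors, depend on the receptor Csf1r and the factor PU.1, and enter most tissues before birth, where they clear dying cells and attend to growing vessels. Many of their surface receptors signal through small adaptors with an ITAM, a tyrosine motif that recruits kinases, of which Fcer1g and Tyrobp are the common ones. Tissue-resident macrophages carry scavenger receptors such as Mrc1 and Stab1 and make complement C1q, while mast cells are a separate myeloid lineage that stores proteases such as Cma1 in granules.

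The depth implied by the RPKM values had a median of about 3270000 reads per library, with 1640000 in the shallowest and 6560000 in the deepest. Palate mesenchyme markers were present, as 8 of 8 had at least 5 RPKM in at least 3 libraries. Posterior medial replicate 2 stood apart with 12935 genes above 0, against 16330 to 20605 in the other 24 libraries, and anterior oral replicate 1 had the lowest depth. The libraries came from 8 sequencing runs of 1 to 8 libraries, and no run held both the medial and the lateral compartment of the same region, so run and compartment cannot be told apart along that axis.

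PU.1 and other ETS factors bind sites with the letters GAGGAA, and the sequences before the transcription start of the members are shown for 9 genes, some with a result below and some that carry these letters. RefSeq promoter windows (build GRCm38.p6) were at hand for 25 of the 33 members, in 31 windows, and not for Tyrobp, Csf1r, Spi1, Itgb2, Emr1, Cd14, Lyve1 and C1qa. Within the 250 bases before the start, GAGGAA stood on either strand in 16 of the 25 members (64%), against 25.9% of 27025 genes, and in 54.8% of the members' windows against 23.2% of all 32851 windows. The longer GAGGAAGT, which contains it, stood in 2 members, Pf4 and C1qc (8%), against 2.79% of genes. The 120 bases nearest the start are printed below on the gene's strand, 5′ to 3′, with GAGGAA or its reverse complement TTCCTC in capitals.
Mrc1 chr2:14229294-14229413, plus strand: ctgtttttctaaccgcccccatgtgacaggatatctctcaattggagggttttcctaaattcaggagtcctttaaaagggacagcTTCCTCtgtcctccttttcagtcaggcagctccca
Pf4 chr5:90772315-90772434, plus strand: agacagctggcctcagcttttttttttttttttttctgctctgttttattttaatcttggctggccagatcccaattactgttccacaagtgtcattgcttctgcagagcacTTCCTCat
F13a1 chr13:37050245-37050364, minus strand: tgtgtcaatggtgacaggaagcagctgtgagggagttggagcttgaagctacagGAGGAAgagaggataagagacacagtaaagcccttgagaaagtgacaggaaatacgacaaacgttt
Stab1 chr14:31168642-31168761, minus strand: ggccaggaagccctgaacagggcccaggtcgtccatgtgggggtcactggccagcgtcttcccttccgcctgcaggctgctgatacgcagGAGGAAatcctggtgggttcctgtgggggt
C1qb chr4:136886201-136886320, minus strand: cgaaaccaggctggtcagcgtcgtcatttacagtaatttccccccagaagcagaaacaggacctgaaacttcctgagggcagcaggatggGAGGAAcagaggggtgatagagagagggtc
Itgam chr7:128062520-128062639, plus strand: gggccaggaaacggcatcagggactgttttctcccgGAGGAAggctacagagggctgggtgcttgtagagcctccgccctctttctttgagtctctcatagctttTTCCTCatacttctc
Laptm5 chr4:130913196-130913315, plus strand: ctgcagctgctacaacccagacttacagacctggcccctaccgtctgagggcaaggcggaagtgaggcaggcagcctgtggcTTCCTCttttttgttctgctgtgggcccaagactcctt
Lyz2 chr10:117282273-117282392, minus strand: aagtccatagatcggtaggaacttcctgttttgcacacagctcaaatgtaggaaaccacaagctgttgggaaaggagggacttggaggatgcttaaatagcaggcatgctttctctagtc
Cma1 chr14:55944676-55944795, minus strand: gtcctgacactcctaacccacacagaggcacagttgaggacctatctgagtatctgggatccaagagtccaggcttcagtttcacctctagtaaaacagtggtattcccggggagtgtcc
Within these 120 bases Itgam carried the letters 2 times, Mrc1, Pf4, F13a1, Stab1, C1qb and Laptm5 carried them 1 time each, and Lyz2 and Cma1 did not carry them. F13a1 has 2 windows, and the other, not printed, did not carry them within its 250 bases. A match of 6 letters is a description of these windows and not a binding site.

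Of the 32 members, 25 were above 0 in all 25 libraries, and 20 reached 5 RPKM in at least 3 libraries, a minimum that 31.9% of the genes in the table passed. By median RPKM, 4 members were at 20 or more, 7 between 10 and 20, 7 between 5 and 10, 11 between 1 and 5, and 3 under 1. In bulk tissue, fewer macrophages and less RNA per macrophage cannot be told apart.

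**Figure D1:**
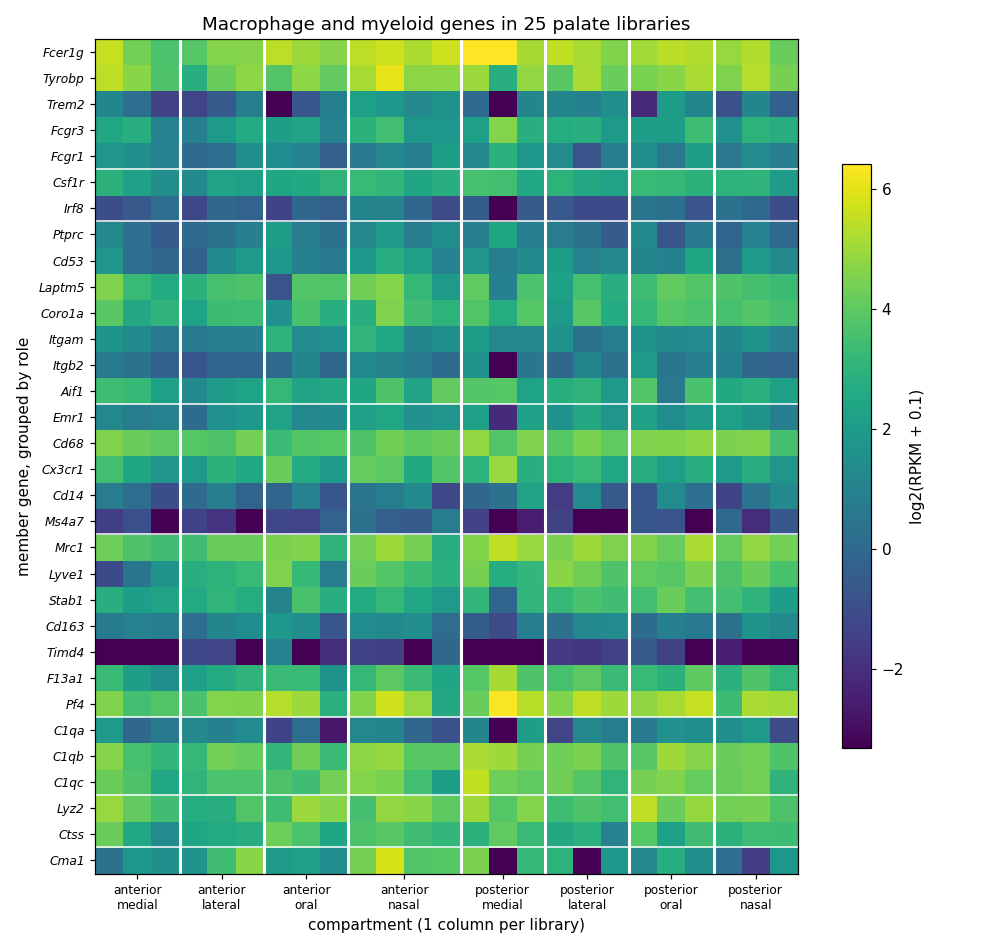
Level of the 32 members (rows, grouped by role) in the 25 libraries (columns, grouped by compartment), as log2(RPKM + 0.1) on the colour scale. Fcer1g, Pf4 and Tyrobp were the brightest rows, Timd4 and Ms4a7 the darkest, and posterior medial replicate 2, the middle column of its compartment, was dark for C1qa, Trem2, Itgb2 and Cma1 and bright for Pf4, Mrc1 and Fcgr3.

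Among the receptor adaptors, Fcer1g, the shared gamma chain of Fc receptors, was the highest of the members with a median of 35.1 RPKM and a range of 12.7 to 85.6. Tyrobp (DAP12), the adaptor of Trem2, had a median of 25.6 and a range of 6.72 to 66.7. Both were present in every library, and the receptors that use them were lower per kilobase. Fcgr3, a low-affinity IgG receptor, had a median of 5.12 RPKM, Fcgr1, the high-affinity one, 2.20, and Trem2, a lipid receptor, 1.74 with 2 libraries at 0. The Fc receptor genes have close relatives, and reads that align to more than 1 place were removed by the authors, so reads shared with a relative are not in these levels.

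Csf1r, the receptor for colony stimulating factor 1 on which macrophages depend, ranged from 2.44 to 12.1 RPKM with a median of 6.84. Irf8, a transcription factor of monocytes and dendritic cells, stayed at or under 1.98 in every library with a median of 0.635. Csf1, which encodes the ligand of Csf1r, had a median of 16.6 RPKM, and Il34, the other ligand, 0.270.

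The pan-leukocyte genes were uneven. The lysosomal membrane gene Laptm5 had a median of 11.8 RPKM and Coro1a, an actin regulator of leukocytes, 10.3, whereas Ptprc (CD45) had 1.62, Cd53 2.30, Itgb2 1.16 and Itgam, the integrin chain also known as CD11b, 2.37. Aif1, the actin-binding marker Iba1, had a median of 5.94. Laptm5 was between 3.83 and 24.2 in 23 libraries, but was 0.482 in anterior oral replicate 1 and 1.85 in posterior medial replicate 2, the same libraries that stood apart in depth and genes detected.

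Of the macrophage surface and endosome genes, the lysosomal glycoprotein Cd68 was the steadiest of the 32 members, at 18.3 ± 5.09 RPKM (SD, n = 25), a coefficient of variation of 27.7%. Cx3cr1, the fractalkine receptor, had a median of 6.61 with 30.0 in posterior medial replicate 2, and Emr1, which encodes F4/80, a median of 3.20 with 0.131 in that same library. Cd14, the lipopolysaccharide co-receptor, had a median of 1.09 and Ms4a7 0.293.

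The resident macrophage genes split into a high and a low set. Pf4, a chemokine of platelets and resident macrophages, had a median of 27.9 RPKM, Mrc1, the mannose receptor, 21.1, Lyve1, a hyaluronan receptor, 12.4, F13a1, the coagulation factor XIII A chain, 9.37, and Stab1, a scavenger receptor, 7.98. Cd163, the haemoglobin scavenger receptor, had 1.75 and never passed 3.53, and Timd4, a phosphatidylserine receptor, had 0.0757 and was at 0 in 12 libraries. On the scale of 1 read, which is worth 0.106 RPKM for Lyve1 at the median depth, Lyve1 rested on about 3.33 to 437 reads per library and Mrc1 on about 144 to 790.

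The C1q chains assemble in equal numbers, yet the rows were far apart. Their genes are neighbours in mm9, the build of the deposited table, with C1qb at chr4:136436061-136442092, C1qc at chr4:136445717-136448829 and C1qa at chr4:136451831-136454759. C1qb had a median of 19.3 RPKM and C1qc 16.2, both above 4 RPKM in every library, but C1qa had 1.85 and did not exceed 4.31. That C1qa level rests on about 17.3 reads at most in a library, against up to 217 for C1qb. The enzymes Lyz2, lysozyme, and Ctss, cathepsin S, had medians of 16.7 and 8.67, where Lyz2 shares sequence with its neighbour Lyz1.

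Over the 8 compartments, 1 of the 20 members tested differed in a moderated F test with limma, namely Lyve1 (adjusted p = 0.0210), against 4.42% of the 11913 genes tested. Fcer1g, F13a1 and Lyz2 came next, with unadjusted p-values of 0.0231, 0.0332 and 0.0368 and adjusted p-values of 0.254, 0.325 and 0.346 in limma, where 1434 genes had an unadjusted P under 0.05. The Lyve1 gene spans chr7:117994121-118006467 in mm9. Lyve1 was lowest in the anterior medial compartment, at 0.352, 1.29 and 3.08 RPKM in its 3 libraries. Then followed anterior lateral at 8.06 ± 1.36, anterior oral at 11.3 ± 10.9, posterior medial at 12.2 ± 8.06, anterior nasal at 12.4 ± 4.80 (n = 4), posterior nasal at 14.51 ± 3.24, posterior oral at 17.9 ± 3.93 and posterior lateral at 19.5 ± 6.05 (SD, n = 3 each except as stated). Neighbours in that order overlapped in their libraries except for the first pair. The Lyve1 call was lost with sequencing run as a covariate (adjusted p = 0.074) and without anterior medial replicate 1 (0.167) or replicate 2 (0.0969).

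**Figure D2:**
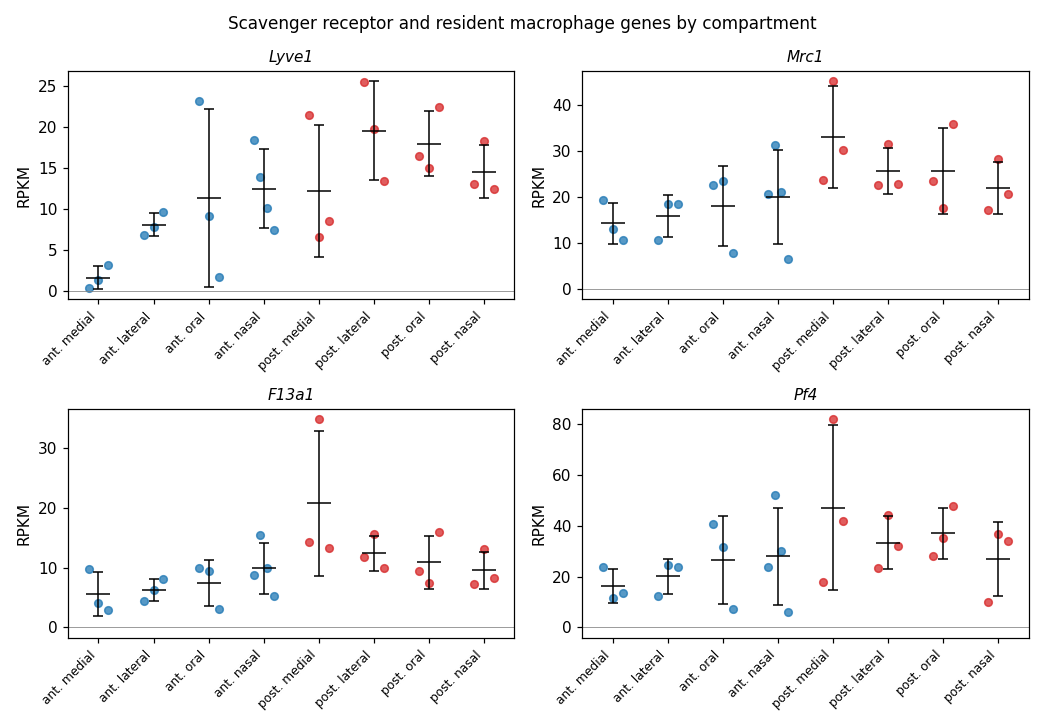
RPKM of Lyve1, Mrc1, F13a1 and Pf4 by compartment, with 1 point per library (blue anterior, red posterior), a bar at the mean and whiskers of 1 SD (n = 3, or 4 for anterior nasal). Lyve1 was at or under 3.08 in the 3 anterior medial libraries, and the highest Mrc1, F13a1 and Pf4 points (45.3, 34.8 and 81.8) are all posterior medial replicate 2.

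No member passed the adjusted threshold when the 12 posterior and 13 anterior libraries were compared, and 5 of the 7 resident macrophage genes had higher means in the posterior. Cd163 (1.61 ± 0.801 against 2.02 ± 0.838 RPKM) and Timd4 (0.133 ± 0.182 against 0.314 ± 0.537), both below the minimum for testing, had lower ones (SD, n = 12 and 13). None of the 17 members tested was called at an adjusted p under 0.05 (limma, Benjamini-Hochberg), against 3.32% of the 8608 genes tested. At an unadjusted P under 0.05 there were 7 of 17, against 15.3% of the genes, with Lyve1, Mrc1, F13a1, Pf4, Cd68 and C1qb higher and Cma1 lower in the posterior. The median log2 difference of the members was 0.36 against 0.03 for all genes, and 13 of 17 were above 0 against 55.7%. No member's anterior and posterior libraries were fully separate, as they were for 0.267% of the genes.

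Mrc1 ranged from 6.59 to 31.5 RPKM with a median of 18.6 in the anterior libraries, and from 17.2 to 45.3 with a median of 23.6 in the posterior ones. Its log2 difference was 0.70 ± 0.22 (SE) with an adjusted p of 0.0810 in limma. F13a1 ran from 2.82 to 15.5 (median 8.02) in the anterior and from 7.32 to 34.8 (median 12.4) in the posterior, a log2 difference of 0.86 ± 0.26 with an adjusted p of 0.0726 in limma. The ranges overlapped for both genes, with the low end missing from the posterior libraries.

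Lyve1 ran from 0.352 to 23.1 RPKM (median 7.81) in the anterior libraries and from 6.52 to 25.4 (median 15.7) in the posterior ones. The log2 difference was 1.39 ± 0.47, the largest rise among the members tested in this comparison, with an adjusted p of 0.116 in limma. It was also past the looser thresholds of the study (fold change above 2 with P under 0.05, taken here as unadjusted), as were 0.743% of the genes in the posterior direction. Cma1, taken up below, was past them in the anterior direction, as were 1.01%. Pf4 was 5.85 to 52.1 (median 23.7) against 10.1 to 81.8 (median 34.5), a log2 difference of 0.73 ± 0.33 with an adjusted p of 0.278 in limma.

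The call of these genes depended on how run and position entered the fit. With position as a covariate the adjusted p of Lyve1 was 0.0332, and without posterior medial replicate 2 and anterior oral replicate 1 it was 0.0321. With sequencing run as a covariate Lyve1 (log2 difference 2.43, adjusted p = 0.00528), Mrc1 (1.06, 0.00909) and Pf4 (1.31, 0.00987) were called, and F13a1 was not (1.20, 0.0553). Without anterior nasal replicate 2, Mrc1 and F13a1 were called (adjusted p = 0.0356 and 0.0305), all by limma.

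Anterior and posterior libraries of the same position shared a run in 4 cases, the medial, lateral, oral and nasal positions, which use 6 anterior and 6 posterior libraries. Of the 17 members tested, 4 were higher in the posterior in 4 of 4, against 6.55% of the genes, and they were Mrc1, Lyve1, F13a1 and Pf4, named after their values were seen. Mrc1 went from 14.3 to 37.7 RPKM in the medial, 18.5 to 27.3 in the lateral, 7.94 to 23.5 in the oral and 6.59 to 17.2 in the nasal position. Lyve1 went from 1.57 to 7.53, from 9.53 to 16.5, from 1.64 to 16.5 and from 7.34 to 12.9 in the same order. The medial pair used posterior medial replicates 2 and 3 and not replicate 1, and replicate 2 had the fewest genes detected. Mrc1 was 45.3 and 30.2 RPKM in those used and 23.7 in replicate 1, and Pf4 was 81.8 and 41.8 against 17.8. The lateral pair had 1 anterior library. The oral and nasal pairs are 1 library against 1, and their anterior libraries held the lowest Mrc1 of their compartments, whose means were 18.04 ± 8.76 against 25.7 ± 9.31 in the oral (n = 3 each) and 19.98 ± 10.2 (n = 4) against 22.0 ± 5.63 (n = 3) in the nasal position. Of the adaptors and enzymes, Fcer1g and Lyz2 were higher in the posterior in 3 of 4 positions, Ctss in 2 and Tyrobp in 1. Cma1 was lower in the posterior in 4 of 4, against 6.82% of the genes.

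**Figure D3:**
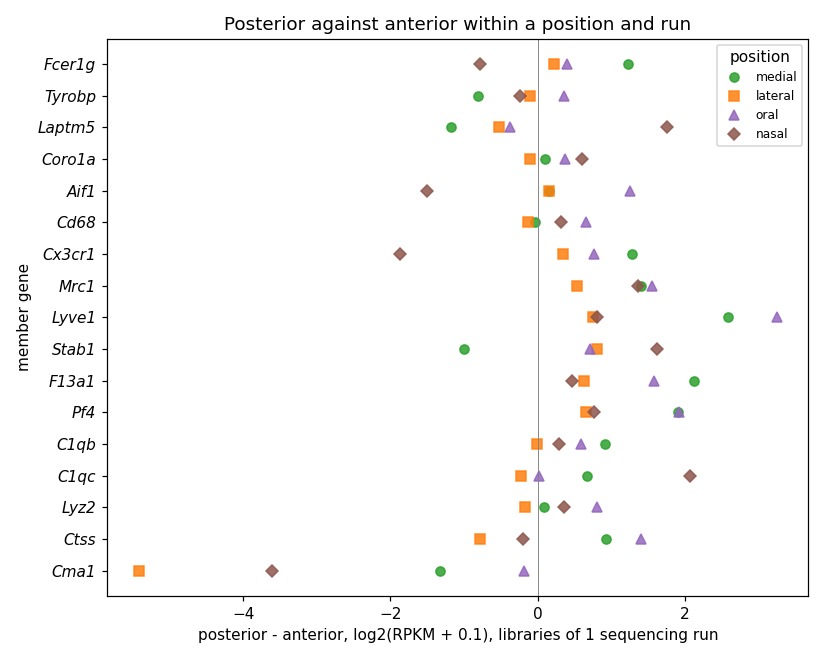
Posterior minus anterior log2(RPKM + 0.1) of the 17 members tested, with 1 point for each position, between libraries of the same sequencing run. All 4 points of Mrc1, Lyve1, F13a1 and Pf4 lie right of 0, and all 4 of Cma1 lie left of it.

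Summed RPKM of marker genes of other cells went both ways by their medians. Mast cell genes other than Cma1 went from 61.4 in the anterior to 19.9 in the posterior, and epithelial genes from 53.9 to 28.6. Skeletal muscle genes went from 27.1 to 25.8, and platelet genes other than Pf4 from 6.64 to 7.38. Endothelial genes went from 167 to 184, though 2 of 9 tested had a log2 difference above 0. Lymphatic and red cell genes were higher in the posterior. Lyve1 also marks lymphatic vessels, and the 5 other lymphatic genes summed to 10.02 to 31.6 RPKM (median 16.1) in the anterior and to 8.46 to 74.5 (median 25.2) in the posterior libraries. Of these, Ccl21a was at 0 in all 25 libraries. The authors removed reads that align to several places, so any reads shared with a related gene would be missing. The 0 of Ccl21a is therefore not read as absence of its transcript. Prox1, the defining lymphatic factor, had a median of 1.93 and a range of 0.365 to 20.7. Across the 25 libraries Lyve1 correlated with Prox1 at r = 0.34 (rho = 0.38) with Mmrn1 at r = 0.38 (rho = 0.43) and with Flt4 at r = 0.055 (rho = 0.072), as a description of libraries that share runs and depths. Red cell genes, a sign of blood in the capture, summed to 457 to 877 (median 586) in the anterior and 428 to 1196 (median 924) in the posterior libraries, and the part of either in these differences was not tested.

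Pf4 is also a platelet gene, and its platelet partner Ppbp was concentrated in 1 compartment. Ppbp was 22.3, 43.3 and 16.1 RPKM in the posterior medial libraries and at most 4.08 in the other 22. The 9 platelet genes other than Pf4 summed to 27.2 to 48.5 in the posterior medial libraries and to 3.29 to 23.3 elsewhere, where Itga2b had a median of 0.579 and Gp9 0.821. Pf4 was 17.8, 81.8 and 41.8 in the same 3 posterior medial libraries, so the library with the most Ppbp was also the one with the most Pf4, and across all libraries the pair had r = 0.30 (rho = 0.13, n = 25). Whether platelets account for part of the Pf4 level there was not tested.

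Along the medial-lateral axis of the anterior palate none of 16 members was called at an adjusted p under 0.05 (limma), against 2.51% of 10427 genes, and 2 had an unadjusted P under 0.05 against 15.0%. Lyve1 was 0.352, 1.29 and 3.08 RPKM in the medial and 6.84, 7.81 and 9.53 in the lateral libraries. The groups did not overlap, as for 21.3% of the genes, and the log2 difference was 2.68 ± 0.61 with an adjusted p of 0.0756, which became 0.0257 with a pseudocount of 1 and 0.0203 without anterior medial replicate 3 (limma). Lyz2 was 30.0, 16.7 and 10.6 in the medial against 6.46, 6.54 and 13.7 in the lateral libraries, a log2 difference of -1.06 ± 0.42 with an adjusted p of 0.291. With run as a covariate the Lyz2 difference turned to 0.072, and the members' median moved from -0.09 to 0.85. No run held both compartments, so that fit compares them only through runs shared with other compartments. Lyve1 was past the study's thresholds upwards, as were 1.41% of the genes, and Lyz2 downwards, as were 0.959%. Differences of 6 of 16 members were above 0, against 44.7% of the genes.

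Beside Lyve1, the lymphatic gene Mmrn1 rose in the anterior lateral compartment, at 6.20 ± 0.515 against 3.58 ± 0.467 RPKM (n = 3 each, log2 difference 0.78, adjusted p = 0.0302, limma), and the 5 lymphatic genes without Lyve1 summed to 16.1 to 18.7 there against 12.9 to 14.9 in the medial libraries. The part of lymphatic vessels in the Lyve1 values was not tested. Among other macrophage genes, Runx1, a blood cell factor that mesenchyme and epithelium also use, fell from 36.0 ± 5.80 to 9.49 ± 2.86 (log2 difference -1.94, adjusted p = 0.00649, limma), and was 1 of 23 tested that was called, where 2.51% of all genes were. The epithelial marker Krt14 fell there too (log2 difference -2.15, adjusted p = 0.0104, limma). Another epithelial marker, Krt8, rose (log2 difference 1.36, adjusted p = 0.0498, limma).

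In the posterior palate 0 of 19 members were called between the lateral and medial compartments, where none of the 10324 genes tested was, and 1 had an unadjusted P under 0.05 against 1.54% of the genes (limma). Lyz2, Ctss and Stab1 did not overlap between the groups, 3 of 19 against 6.62% of the genes. Lyz2 was 32.2, 14.3 and 24.2 RPKM in the medial and 10.5, 13.4 and 10.9 in the lateral libraries (log2 difference -0.95 ± 0.37, adjusted p = 0.957, limma). Ctss was 7.47, 16.3 and 9.34 against 5.83, 7.42 and 1.90, and Stab1 went the other way, at 8.63, 0.776 and 8.10 against 9.01, 12.2 and 10.6. The members' median log2 difference was -0.62 against 0.05 for all genes, with 16 of 19 members below 0 where 54.3% of the genes were above it. Of the other macrophage genes, 14 of 28 tested were above 0 (median -0.007). The members' median became 0.22 with run as a covariate, a fit that compares lateral with medial only through runs shared with other compartments.

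Cma1 (chymase), the mast cell protease encoded at chr14:56560288-56563498 in mm9, had the largest oral-nasal difference of the 20 members tested in the anterior palate. Its values were 3.97, 4.53 and 2.55 RPKM in the anterior oral libraries and 21.2, 57.5, 13.6 and 14.2 in the anterior nasal ones. The groups did not overlap, as for 3.67% of the 10684 genes, and the log2 difference was -2.59 ± 0.51 with an unadjusted p of 9.04e-04 and an adjusted p of 0.403 in limma. It was the only 1 of 20 members past the thresholds of the study, as were 0.786% of the genes in the nasal direction. Oral was below nasal in each of the 3 runs that held both, with differences of -3.10, -1.56 and -2.43 on the log2 scale.

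**Figure D4:**
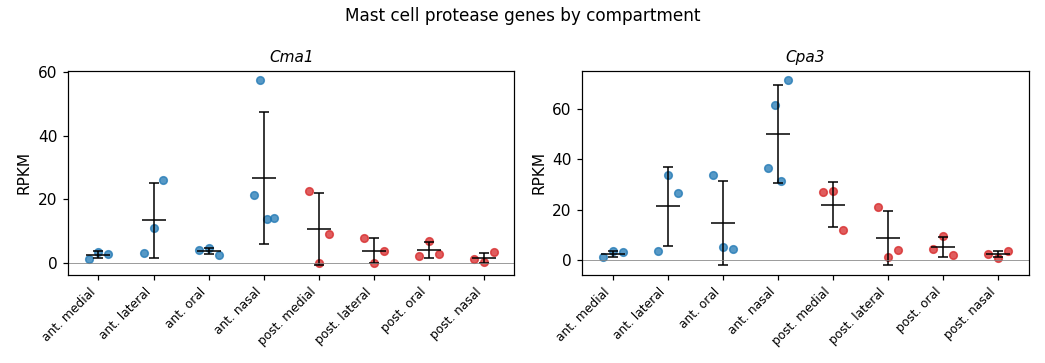
RPKM of the mast cell protease genes Cma1 and Cpa3 by compartment, with 1 point per library (blue anterior, red posterior), a bar at the mean and whiskers of 1 SD (n = 3, or 4 for anterior nasal). The 4 anterior nasal libraries lie between 13.6 and 57.5 for Cma1 and between 31.3 and 71.6 for Cpa3.

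Other mast cell genes shared part of this pattern. Cpa3, the mast cell carboxypeptidase, was 36.4, 61.5, 31.3 and 71.6 RPKM in the anterior nasal libraries and 33.8, 5.13 and 4.50 in the anterior oral ones, and differed over the 8 compartments (adjusted p = 0.0257, limma F test). Gata2, a factor of mast cells and of other lineages, was 17.7, 20.9, 18.8 and 25.4 in the nasal against 5.64, 2.95 and 1.94 in the oral libraries. It was also called higher in anterior lateral than medial tissue (log2 difference 1.98, adjusted p = 0.0195, limma), where 2.51% of genes were called. Srgn, from the same list, was called higher in posterior oral than nasal tissue (2.18, adjusted p = 0.0423, limma), where 1.25% were. Over the 25 libraries Cma1 and Cpa3 correlated at r = 0.65 (rho = 0.76). The 13 mast cell genes other than Cma1 summed to 68.2 to 134 in the anterior nasal libraries, to 13.6 to 71.8 in the other anterior ones and to 9.10 to 108 in the posterior ones. Among the receptor genes, Fcer1a was at 0 in 24 libraries and Ms4a2 in 19, while Kit ranged from 1.47 to 6.92 RPKM.

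Most members tested leaned towards nasal in the anterior palate, Cma1 among them, and towards oral in the posterior palate, without passing the test. Of the other macrophage genes, 6 of 28 tested were above 0 in the anterior comparison (median -0.26). In the posterior one 15 of 26 were (median 0.08), so the posterior lean of the members was not shared by that list. Cma1, below the minimum for testing in the posterior pair, was 3.92 ± 2.48 RPKM in oral and 1.55 ± 1.60 in nasal tissue (SD, n = 3 each). None of the 20 members tested was called between anterior oral and nasal, as none of the 10684 genes was, with 318 genes and 2 members at an unadjusted P under 0.05 (2.98% of the genes, limma). Differences of 18 of 20 members were below 0, with a median of -0.47 against -0.01 for all genes, of which 47.6% were above 0. Tyrobp was 14.0, 26.9 and 16.8 RPKM in the oral and 35.7, 66.7, 26.6 and 27.4 in the nasal libraries, a log2 difference of -0.97 ± 0.39 with an adjusted p of 1.00 in limma. Within runs, 4 of the 20 members were lower in oral in each of 3 runs, against 10.3% of the genes, and these were Fcer1g, Cd68, F13a1 and Cma1, named after their values were seen. Another 2, Itgam and Pf4, were higher in oral in each of the 3, and the share of all genes in that direction is not given here.

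Between posterior oral and nasal none of 18 members was called, against 1.25% of 10586 genes, and 0 of 18 members but 847 genes had an unadjusted P under 0.05 (limma). No member's groups were separate, against 11.8% of the genes. Differences of 16 of 18 members were above 0, against 47.8% of the genes, with a median of 0.35 against -0.01 for all genes, and the median was 0.09 with run as a covariate. Stab1 was largest at 0.86 ± 0.38, with 11.2, 18.3 and 11.2 RPKM in the oral and 11.4, 7.98 and 4.19 in the nasal libraries. The part of vessels in the Stab1 values was not tested. Red cell genes were above 0 in 6 of 6 tested (median 0.88, 0 called), and their part was not tested. Endothelial genes were above 0 in 9 of 9 tested in both the posterior (median 1.08) and the anterior comparison (0.76), with Emcn, a vein and capillary sialomucin, called in the posterior at 21.2 ± 6.08 against 6.97 ± 1.70 (n = 3 each, log2 difference 1.58, adjusted p = 0.0401, limma).

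**Figure D5:**
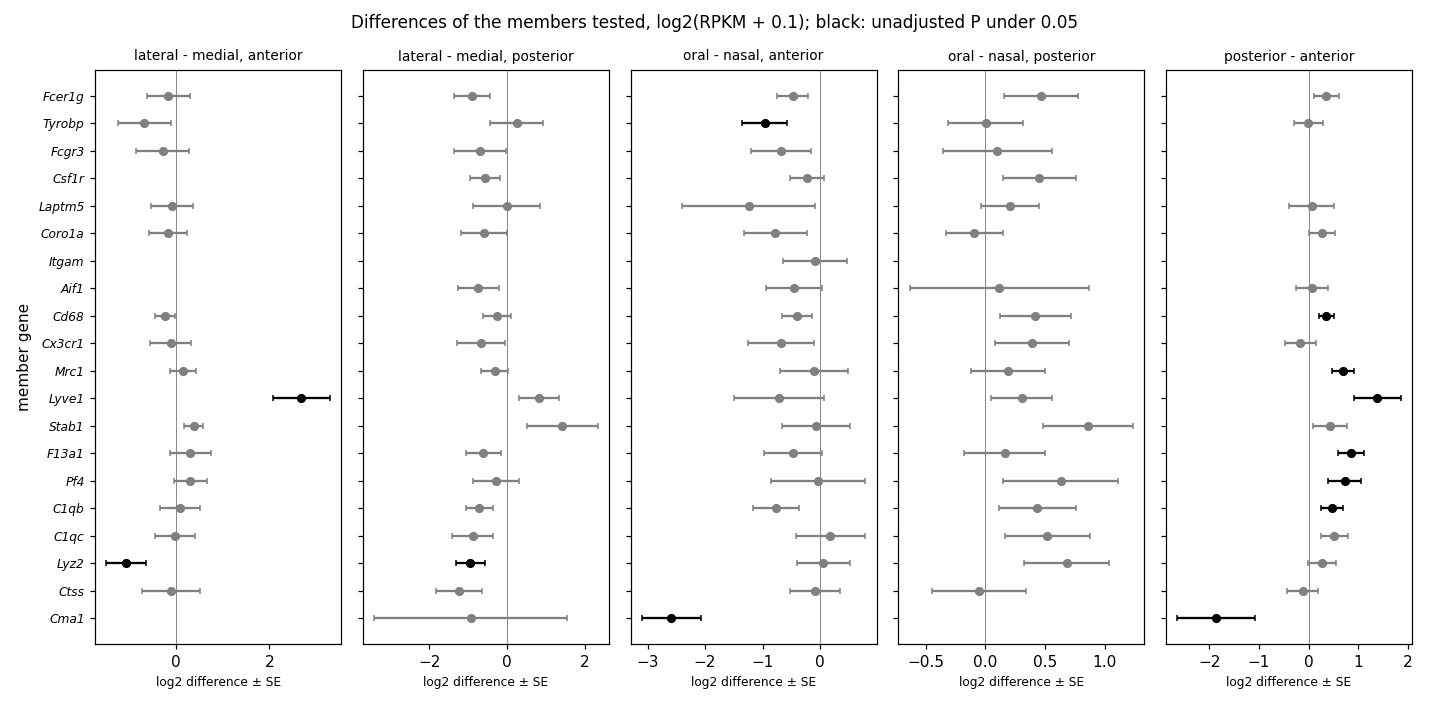
Log2 difference of each member tested in 5 comparisons, with whiskers of 1 SE from limma and black points for an unadjusted P under 0.05 (the horizontal scale differs between panels). The oral-nasal points lie mostly left of 0 in the anterior and mostly right of 0 in the posterior panel, and Lyve1 is the rightmost point in the anterior lateral-medial and posterior-anterior panels.

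The difference between the anterior and posterior oral-nasal contrasts was tested directly as an interaction. It was below 0 for 20 of 20 members, with a median of -0.73 against -0.02 for all genes, of which 47.4% were above 0, and no member passed an adjusted p under 0.05, against 0.0350% of 11442 genes (limma). The members share the same libraries and are not independent of each other. Red cell genes moved the same way, below 0 in 8 of 8 tested with a median of -1.02, and 0 were called, and their part in the members' values was not tested. Cma1 had the largest value at -4.27 ± 1.04 (unadjusted p = 0.00146, adjusted p = 0.328) and Fcer1g -0.95 ± 0.42 (unadjusted p = 0.0418, adjusted p = 1.00), the 2 with an unadjusted P under 0.05 against 3.38% of the genes, both by limma. Cma1 was also past the study's thresholds here, as were 1.54% of the genes in that direction. The medial-lateral interaction had 14 of 19 members above 0, against 42.8% of the genes, with a median of 0.48 against -0.09 and no call against 0.00902% of 11089 genes, and no member had an unadjusted P under 0.05 against 3.36%. Of the other macrophage genes, 12 of 31 tested were above 0 in this interaction (median -0.24), and 5 of 33 in the oral-nasal one (median -0.43).

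Of 59 further macrophage genes in the table, 36 passed the minimum for the test over 8 compartments, and 2, Runx1 and Cbr2, were called in it, where 4.42% of all genes were. Cbr2, a carbonyl reductase expressed in some resident macrophages and in airway epithelium, was 1.41, 3.14 and 2.92 RPKM in the posterior oral and 14.2, 36.9 and 10.2 in the posterior nasal libraries (log2 difference -2.84 ± 0.49, adjusted p = 0.0382, limma), opposite in sign to 16 of the 18 members. The epithelial keratin Krt18 moved with it, at 1.97 ± 0.532 against 6.14 ± 1.04 (n = 3 each, adjusted p = 0.0284, limma), and the part of epithelium in the Cbr2 values was not tested. In the anterior palate Cbr2 was 2.99, 3.93 and 1.345 in the oral and 26.2, 46.2, 23.0 and 5.06 in the nasal libraries. It was not called there, and its direction was that of 18 of the 20 members. Lgmn, the lysosomal protease legumain, rose in the posterior palate from 12.3 ± 3.31 (n = 13) to 18.5 ± 4.98 (n = 12, log2 difference 0.59, adjusted p = 0.0273, limma), and was 1 of 20 tested that was called there, where 3.32% of all genes were. Ctsk, a protease of osteoclasts and fibroblasts, rose as well (log2 difference 1.504, adjusted p = 0.00173, limma), while the osteoclast gene Acp5 had a median of 1.25.

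Markers of other leukocytes were mixed. Of the monocyte and dendritic cell genes 3 of 11, and of the neutrophil genes 2 of 12, had at least 5 RPKM in at least 3 libraries, and the lists summed to medians of 24.8 and 26.2 RPKM. Cd74, the invariant chain of MHC class II, had a median of 12.1 (highest 65.2), H2-Ab1, a class II chain, 3.90, and Cxcr2, a chemokine receptor of neutrophils, 17.0 (highest 42.6), all named after their values were seen. The dendritic cell genes Flt3 and Zbtb46 had medians of 0.0648 and 1.06 RPKM, the monocyte gene Ccr2 1.98, the neutrophil genes Elane and Mpo 0 and 0.120, and the lymphocyte gene Cd3e 0. Cd3d did not follow Cd3e, with a median of 7.33 and a highest value of 81.9 in anterior nasal replicate 1. Of the 15 ligand genes for myeloid receptors 7 reached the minimum for the test over 8 compartments, and 0 of 7 were called, where 4.42% of all genes were (limma).

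Members varied together across libraries to different degrees. Over the 190 pairs of the 20 members above the minimum, the median Pearson r of log2(RPKM + 0.1) was 0.28 (range -0.52 to 0.92), and 156 pairs were above 0. The closest pairs were Mrc1 with Pf4 (r = 0.92, rho = 0.82) and Mrc1 with F13a1 (r = 0.91, rho = 0.95). C1qb was closest to the mean of the other members (r = 0.80), and Cma1 the least close (r = 0.02), with Stab1 at 0.18 and Lyve1 at 0.29. These are descriptions over 25 libraries that share runs and differ in depth.

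The 10 genes outside the members whose profile over the 25 libraries was most like the members' mean had r between 0.62 and 0.78. They were Fcrls (r = 0.78), Lcp2, Rac2, Tgm2, Alox5ap, Chrac1, Egln3, Gatm, Ctsc and Htra3 (r = 0.62), and 4 of them, Fcrls, Lcp2, Rac2 and Ctsc, were on the list of further macrophage genes. Without posterior medial replicate 2 the r of Lcp2 went from 0.71 to 0.83 and that of Alox5ap from 0.67 to 0.80.

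The members' summed level without Cma1 was highest in the posterior medial compartment at 416 ± 66.9 RPKM (SD, n = 3) and lowest in the anterior lateral one at 207 ± 61.4 (n = 3). In between were anterior medial at 236 ± 114, anterior oral at 262 ± 55.9, posterior nasal at 285 ± 68.8, posterior lateral at 288 ± 60.8, anterior nasal at 342 ± 108 (n = 4) and posterior oral at 361 ± 40.8. Neighbours in this order overlapped in their libraries. Of the 20 members above the minimum, 10 had their highest mean in the posterior medial and 4 in the anterior nasal compartment, while 7 had their lowest mean in the anterior lateral and 5 in the anterior medial one. Of the 32 members, 7 had their highest value in posterior medial replicate 2, the library with the fewest genes detected. The palate mesenchyme markers also had their highest sum in that library, at 1110 RPKM. The share of all genes with their highest or lowest level in these places is not given here, so the counts are not read as particular to the members.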

How the data were processed

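Total RNA from laser-captured compartments of E14.5 palate was amplified with NuGEN Ovation RNA-Seq V2, made into Nextera libraries and sequenced as 50-base single reads. The submitters' processing notes name TopHat and build mm9, the aligner version and annotation are not given in the sources used here, and the authors computed RPKM in GeneSpring 12.6.1 after removing duplicate reads and reads with more than 1 alignment. Duplicate removal limits the highest levels. The deposited RPKM table was used as it stood. Depth was estimated from the steps of low RPKM values against transcript lengths of GENCODE M21, and approximate reads per gene come from it.

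Values were tested as log2(RPKM + 0.1) with limma 3.58.1 in R 4.3.3, with p-values adjusted by Benjamini-Hochberg over all genes tested, so log2 differences of low genes are understated. Genes needed 5 RPKM in 3 compared libraries, or 10 RPKM in 6 libraries for posterior against anterior. Pairs were fitted on their own libraries. A second call rule followed the study's thresholds of P under 0.05, taken here as unadjusted, and fold change over 2, where its pooled anterior-posterior test was replaced by limma. A positive difference means higher in lateral, in oral or in posterior tissue, and interactions are the anterior minus the posterior difference. The script was tested on simulated data with known changes. Sequencing runs came from the alignment names that the study gives for its libraries.

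All 33 members were named, with some of the further list genes that were called or define a cell type, and the 10 genes most alike by Pearson r. Members and lists were chosen with earlier results of these data known. Replicate numbers were checked for pairing and did not pair the libraries. Alternatives were other pseudocounts (1 and 0.01), no minimum, centring on the median, all 25 libraries in 1 fit, run or position as covariate, a replicate block and leaving out each library.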

Additional observations from a re-analysis of the deposited data

Results flagged for a closer look

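Of the 32 members, 1 value in the anterior nasal compartment, the only group of 4 libraries, lay far from the rest by the gap between neighbours over the whole range. Cd163 was 1.02 RPKM in anterior nasal replicate 4, against 2.41, 2.58 and 2.66 in the other libraries, a gap of 0.847 of the range, past Dixon's limit for 4 values. Chance alone flags about 1 in 20 groups, and Cd163 was below the minimum for testing.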

How the results depend on the processing

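The count of members called stayed at 0 under every alternative run for posterior lateral against medial, for both oral against nasal pairs and for both interactions. For anterior lateral against medial the count was 0, 1 with a pseudocount of 1, and 0 to 1 when single libraries were left out. For posterior against anterior it was 0, 1 with position as a covariate, 3 with run as a covariate, 0 to 2 with single libraries left out, and 1 without posterior medial replicate 2 and anterior oral replicate 1, a setting chosen after seeing the data. For any difference among the 8 compartments it was 1, 0 with run as a covariate and 0 to 1 with single libraries left out. The Lyz2 difference between anterior lateral and medial turned from -1.06 to 0.072 with run as a covariate, and the cause was not tested. No run held both of these compartments, so that value is an indirect comparison.

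The replicate block left every count of calls as it was, including 0 for posterior against anterior and 1 for the compartments. Libraries with the same number in different compartments did not deviate together (median r = 0.04, range -0.44 to 0.41, 84 pairs). At the median depth 1 read was worth 0.141 RPKM for Timd4 and 0.0882 for Irf8, so members with medians under 1 RPKM rest on few reads in most libraries.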
